A study of Mus musculus with 12 samples.

Results

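The change in skin gene expression over 12 weeks of topical baricitinib was compared with the change over 12 weeks of topical vehicle. For every mouse, the log2 expression value of each probe set at week 0 was subtracted from its value at week 12. The mean of the 3 vehicle mice was then subtracted from the mean of the 3 baricitinib mice, and the result is called the difference of changes below. Its sign is negative where the week 12 value, relative to the week 0 value, was lower with baricitinib than with vehicle. All probe sets of the array other than the manufacturer's controls were included, which gave 45037 of the 45101 probe sets. One log2 unit is a 2-fold difference in array signal.

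The mice were C3H/HeJ recipients of grafts of alopecic C3H/HeJ skin, a model of alopecia areata, and treatment began only once the disease was established. Baricitinib, an inhibitor of the kinases JAK1 and JAK2, was applied to the skin of 3 mice, and vehicle control to that of 3 others. They are called baricitinib mice 1, 2 and 3 and vehicle mice 1, 2 and 3, numbers that have no order in themselves. All 6 mice carried the graft and were alopecic at week 0, so that no group had healthy skin, and the age of the mice at biopsy is not given in the labels. A skin biopsy from each mouse at both weeks was measured on its own array, 12 in all. The 8 defining genes of epidermis and dermis that were examined, among them Krt5, Krt14, Lor and Col1a1, lay between 11.4 and 13.5 on the log2 scale on every array.

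In alopecia areata, cytotoxic T cells gather around the growing hair follicle and release interferon-gamma. Interferon receptors signal through JAK kinases, which phosphorylate STAT transcription factors, and these switch on chemokines that draw in further T cells, antiviral proteins and guanylate-binding GTPases. The follicle itself cycles between growth (anagen), in which matrix cells divide and fill the shaft and inner root sheath with keratins, regression, and rest (telogen), in which these structures are not made.

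Array quality was uneven. The SD of the log2 values over all probe sets was 2.56 on the week 0 array of baricitinib mouse 2 and 2.61 on the week 12 array of baricitinib mouse 1, against 2.73 to 2.85 on the other 10 arrays. According to the study's methods, a baricitinib array of each week failed quality control in the topical experiment, and so did a baseline control array for which the wording leaves the experiment unclear. Which arrays these were is not stated there, and a vehicle array of week 0 may be among them. All 12 arrays were deposited. The changes of the 2 mice with a narrow array ran against each other across all probe sets (Pearson's r across probe sets -0.27, which are not independent). RNA quality also differed, since the change in the 3' minus 5' signal of the Gapdh and Actb control probe sets was 0.263, -2.83 and -1.24 in baricitinib mice 1 to 3 and 1.74, -0.574 and -0.500 in vehicle mice 1 to 3. Results are therefore given with all 12 arrays and, where this mattered, without the 2 narrow ones. Leaving these out did not balance RNA quality. The baricitinib arrays kept at week 12 had a Gapdh 3' minus 5' signal of 1.00 and 1.10, against 2.75, 2.96 and 3.79 with vehicle. At week 0 it was 3.13 and 2.17 against 0.84, 3.78 and 4.30. How far calls made without the narrow arrays follow RNA quality was not tested.

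No probe set passed an adjusted p of 0.05 in the limma test of the 6 per-mouse changes, and the smallest adjusted p was 0.184. At an unadjusted p under 0.05 the difference of changes was negative for 1412 probe sets (3.14% of those tested) and positive for 1383 (3.07%). With the 2 narrow arrays left out and the remaining 10 arrays fitted without pairing, limma called 19 probe sets lower (0.0422%) and 16 higher (0.0355%), with a smallest adjusted p of 0.0153. The pairs left complete by this, 1 baricitinib mouse against 3 vehicle mice, gave no call (smallest adjusted p 0.215), so that these calls rest on comparing arrays of different mice. On the 6 paired changes, limma called 4 probe sets lower with a variance trend (0.00888%) and 2 without baricitinib mouse 1 (0.00444%). The paired values below are therefore descriptions of the 6 mice, and calls are mentioned only where the 10-array fit made them. With 3 mice against 3, an exact permutation test of a single gene cannot give a p below 0.1. All 3 baricitinib changes lay below all 3 vehicle changes for 6.14% of probe sets and above them for 5.41%. Counted with the brightest probe set of each of the 18193 genes, the shares were 8.5% and 5.39%, and the lists of genes below are set beside these. The lists and their members were chosen with earlier results of these data known. An excess over these shares may therefore follow in part from that choice and tests nothing.

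The interferon-induced chemokines, which recruit T cells and monocytes, included the probe set with the smallest p of all, that of Cxcl11. Its level in baricitinib mice 1 to 3 was 10.21, 10.53 and 11.11 at week 0 and 4.08, 4.42 and 4.42 at week 12. In vehicle mice 1 to 3 it was 11.37, 10.73 and 9.31 at week 0 and 9.26, 8.45 and 8.27 at week 12. The level was thus lower at week 12 in every mouse. The changes were -6.13, -6.11 and -6.70 with baricitinib and -2.11, -2.28 and -1.04 with vehicle, so that the groups did not overlap. The difference of changes was -4.50 (SE 0.44, limma adjusted p = 0.184). A dimmer second probe set for Cxcl11 gave -1.51 and its groups overlapped. As these are measurements on whole skin, fewer cells of a type and less RNA per cell cannot be told apart.

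Cxcl9 and Cxcl10 bind the same receptor on T cells as Cxcl11. For Cxcl10, the changes were -5.11, -4.83 and -6.29 with baricitinib and -1.78, -1.56 and -0.87 with vehicle, a difference of -4.01 (SE 0.49, limma adjusted p = 0.241). For Cxcl9, they were -4.34, -4.61 and -6.12 against -1.31, -1.76 and -0.78, a difference of -3.74 (SE 0.54, limma adjusted p = 0.278). In neither gene did a vehicle mouse come near the least changed baricitinib mouse. Ccl5, made by activated T cells, and Ccl3 were the other chemokines without overlap, at -2.69 and -1.76. The monocyte chemokines were less separated. Ccl2, Ccl7, Ccl8 and Ccl12 had differences of -0.86, -0.60, -1.23 and -1.72, and in each of them vehicle mouse 1 had a more negative change than at least one baricitinib mouse. Over the list, 5 of 11 chemokines did not overlap in the lower direction and none in the higher. The median difference was -1.72, against -0.073 over all genes. That median was -0.886 without vehicle mouse 3. In the 10-array fit Cxcl9, Cxcl11 and Cxcl10 had differences of -3.92, -4.44 and -4.31 and adjusted p-values of 0.071, 0.092 and 0.102, so that none of them passed.

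**Figure D1:**
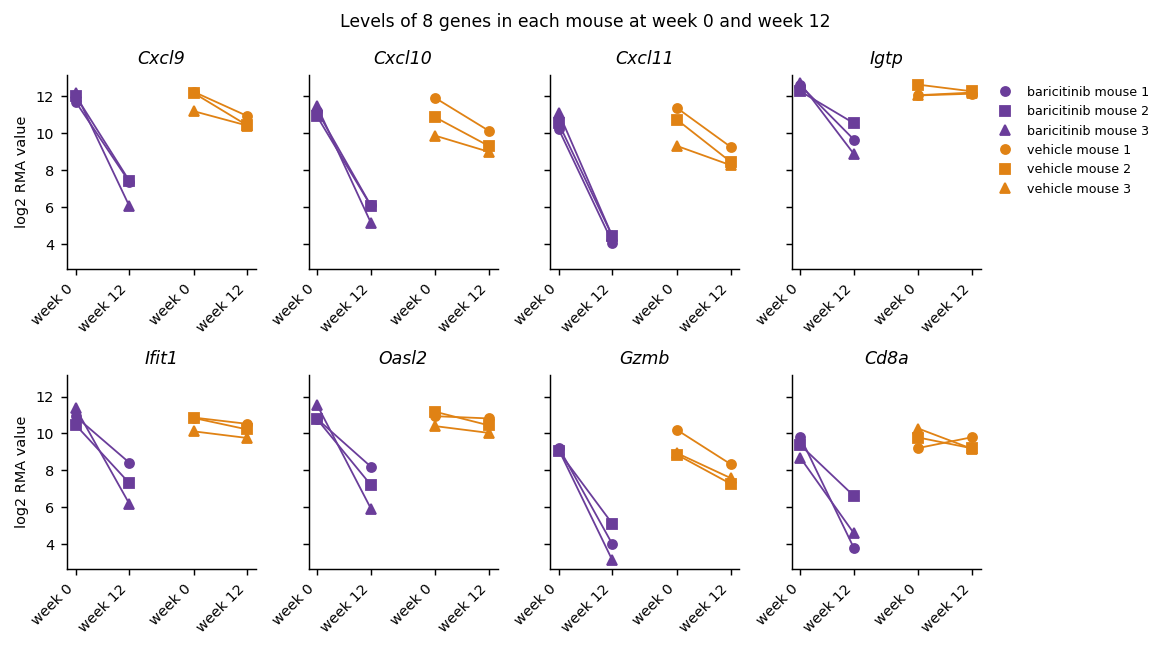
Log2 RMA value (y axis) of 8 genes in each mouse at week 0 and week 12 (x axis), with a line joining the 2 arrays of a mouse, baricitinib mice in purple and vehicle mice in orange. For Cxcl9, Cxcl10 and Cxcl11 every line slopes down, and the baricitinib lines end between 4.08 and 7.43 while the vehicle lines end between 8.27 and 10.93.

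Antiviral genes induced by interferons showed the same order of the groups with a smaller size. For Oasl2, an oligoadenylate synthetase-like protein, the changes were -2.58, -3.55 and -5.60 with baricitinib and -0.12, -0.74 and -0.37 with vehicle, a difference of -3.50 (SE 0.72, limma adjusted p = 0.443). For Ifit1, which binds viral RNA, they were -2.50, -3.15 and -5.18 against -0.34, -0.62 and -0.36, a difference of -3.17 (SE 0.66). In both genes the vehicle mice moved by less than 1 log2 unit and baricitinib mouse 3 had the most negative change. Rtp4 followed with -2.62, Ddx60 with -2.37, Oas1a with -2.31, Oas3 with -2.29, Herc6 with -2.19, Zbp1 with -2.18 and Oas2 with -2.15. Mx1, a GTPase that blocks viral replication, had a difference of -2.17, but its vehicle changes were -1.11, -1.53 and -1.39, close to the -1.84 of baricitinib mouse 1. Of 32 measured genes, 17 did not overlap in the lower direction and none in the higher, and the median difference was -1.13. The list was not uniform, however. Ifit2 (-0.33), Rsad2 (-0.55), Trim30a (-0.52), Isg20 (-0.51) and Ifit3 (-1.14) overlapped, and Ifi27l2a was the only member with a positive difference (0.60).

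Genes that respond chiefly to interferon-gamma were also placed in the same order. The immunity-related GTPases, which attack the vacuoles of intracellular pathogens, were Igtp, Iigp1, Irgm1 and Irgm2. For Igtp the changes were -2.94, -1.73 and -3.83 with baricitinib and 0.10, -0.36 and 0.14 with vehicle, a difference of -2.79 (SE 0.55, limma adjusted p = 0.419). The vehicle mice thus lay on both sides of 0. Iigp1 had a difference of -3.19, Irgm1 of -2.43 and Irgm2 of -1.89. The guanylate-binding proteins Gbp8, Gbp6, Gbp3, Gbp2 and Gbp7 gave -3.23, -2.37, -2.32, -1.75 and -1.57, all without overlap, although Gbp transcripts are alike and probes may be shared between them. The transcription factor Irf1 had a smaller difference of -1.08, also without overlap. Ido1, a tryptophan-degrading enzyme, gave -2.45, and its groups overlapped, since vehicle mouse 2 changed by -2.01 and baricitinib mouse 1 by -1.47. Irf8, Ciita, Cd274, Nos2 and Socs1 lay between -0.50 and -0.08 and overlapped. Of 17 members 11 did not overlap, all in the lower direction, and the median difference was -1.89. Socs1, Jak1, Jak2 and the other members of the JAK-STAT pathway, 22 in all, had a median difference of -0.173, and Stat4 (-1.70), Ifngr2 (-0.64) and Pias1 (0.60) were the 3 without overlap. Jak1 and Jak2 themselves had differences of -0.34 and -0.18. For the 12 cytokines and receptors of the common gamma chain the median was 0.0066, and all 12 overlapped.

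The promoters of some of these genes hold the sequences to which interferon-activated factors bind. Shown as examples are 6 from genes with large differences. Each of the 6 genes had a difference of changes of -1.89 or below without overlap between the groups. The 250 bases before each RefSeq start site were searched on both strands for an interferon-stimulated response element, taken as 2 copies of GAAA with any 2 bases between them or, on the other strand, 2 copies of TTTC spaced in the same way, and for a gamma-activated sequence, TTCNNNGAA. Overlapping matches were kept. Matches stand in capitals with up to 25 bases on each side, 5' to 3' in the direction of transcription, from RefSeq on GRCm38.p6.
Cxcl10, chr5:92349068-92349127, minus strand: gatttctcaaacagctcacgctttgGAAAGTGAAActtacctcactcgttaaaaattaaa
Ifit1, chr19:34640760-34640838, plus strand: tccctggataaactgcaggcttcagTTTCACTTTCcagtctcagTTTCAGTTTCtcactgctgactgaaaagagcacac
Igtp, chr11:58199486-58199555, plus strand: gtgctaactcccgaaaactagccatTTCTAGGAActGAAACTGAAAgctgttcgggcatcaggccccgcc
Irgm2, chr11:58214877-58214947, plus strand: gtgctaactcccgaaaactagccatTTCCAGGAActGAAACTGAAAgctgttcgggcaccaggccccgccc
Irgm1, chr11:48871421-48871475, minus strand: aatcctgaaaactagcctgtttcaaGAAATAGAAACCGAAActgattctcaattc
Gbp3, chr3:142559974-142560039, plus strand: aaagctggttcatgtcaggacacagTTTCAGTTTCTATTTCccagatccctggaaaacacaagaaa
In Cxcl10 and Ifit1 only response elements are capitalised, in Igtp and Irgm2 a gamma-activated sequence precedes the response element, and in Irgm1 and Gbp3 overlapping response elements form 1 run. Of the 27025 genes with a promoter in the table, 3.46% held a response element and 8.13% a gamma-activated sequence. Of the interferon-gamma-induced GTPases and regulators, 7 of 11 with a promoter held the first and 5 the second. Among the antiviral genes these numbers were 8 and 5 of 23, among the chemokines 1 and 0 of 5, and among the inner root sheath genes described below 0 and 1 of 10. Matches not shown here lay before Ddx60 (-2.37), Oas1a (-2.31) and Oas3 (-2.29), which also had large differences without overlap. Genes with small differences held response elements too, among them Bst2 (-0.81), Rsad2 (-0.55), Trim30a (-0.52) and Socs1 (-0.24). A match thus did not go with a large difference in every gene. It describes these letters only, and binding was not measured.

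Transcripts of cytotoxic lymphocytes fell into members with large and members with small differences. Gzmb and Gzma, the proteases that kill target cells, had differences of -3.46 (SE 0.54, limma adjusted p = 0.322) and -4.20 (SE 1.28). The level of Gzmb in baricitinib mice was 9.23, 9.03 and 9.12 at week 0 and between 3.13 and 5.11 at week 12, whereas vehicle mice went from 10.20, 8.86 and 8.94 to 8.34, 7.28 and 7.59. All vehicle mice were thus also below their week 0 level, but none reached the levels of the baricitinib group. Cd8a, the coreceptor of cytotoxic T cells, changed by -6.01, -2.76 and -4.10 with baricitinib and by 0.58, -0.59 and -1.10 with vehicle, a difference of -3.92 (SE 0.82, limma adjusted p = 0.443). A second bright probe set for Cd8a gave -3.70 without overlap, and 3 dimmer ones lay between -1.16 and -0.04 with overlap. Ifng itself, the gene of interferon-gamma, had a difference of -2.58 and did not overlap, and the killer receptor Klrc1 gave -1.91. For Prf1, which forms the pores through which granzymes enter, the difference was positive (1.09), and Nkg7, Cd8b1, Klrk1 and Cst7, found in the same cells, overlapped at -0.80, 0.13, 0.20 and -0.11. In total 5 of 21 members did not overlap, all lower, with a median of -0.755.

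General T cell markers were not separated in the same way. The T cell receptor chains Cd3d, Cd3e, Cd3g and Cd247 had positive differences of 0.74, 0.23, 0.95 and 0.79, and Cd4 had -0.07. For Cd3d the changes were -1.69, 1.22 and 0.22 with baricitinib and -0.79, -0.46 and -1.22 with vehicle, so that baricitinib mice lay on both sides of the vehicle group. Only 2 of 18 measured T cell genes did not overlap in the lower direction, namely Icos (-1.92), a costimulator of activated T cells, and Zap70 (-1.39), and 1 in the higher, the regulatory T cell factor Foxp3 (0.59). Dimmer probe sets gave 0.09 and -0.46 for Icos and -0.18 and 0.08 for Zap70, all with overlap. The median of the list was -0.209, and it was 0.041 without baricitinib mouse 1, -0.401 without baricitinib mouse 2, -0.027 without vehicle mouse 2 and -0.383 without vehicle mouse 3. Antigen presentation also showed no separation. Over 13 MHC class I genes the median was 0.051 and over 7 MHC class II genes 0.091. The difference was below 0 for 6 of the 13 and 3 of the 7. Furthest from 0 were Erap1 (-0.99) in class I and Ctss (-0.92) in class II, both with overlap. H2-Ab1, also of class II, had -0.61 with overlap. H2-K1 and B2m, the 2 chains of a class I molecule, had differences of 0.05 and -0.05, and Cd74 and H2-Aa, of class II, had 0.09 and 0.87. The other 3 probe sets of H2-Aa had negative differences, and the brightest of them (-0.36) did not overlap. By the brightest probe set of each gene, Tapbpl (0.44) was the only one of these 20 without overlap. With the 3' to 5' change of each mouse as a covariate the 2 medians were -0.331 and -0.674, so the sign of these small values was not settled.

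Other immune cells gave mixed values. Of 15 macrophage and monocyte genes, the growth factor receptor Csf1r alone did not overlap (-1.08), and the median of -0.755 was set against vehicle mice that differed widely, with list medians of -2.24, 0.412 and 0.382. It was -1.32 without vehicle mouse 1 and -0.393 without either vehicle mouse 3 or baricitinib mouse 2. Fcgr4 and Fcgr1, Fc receptors that interferon also induces, had -1.83 and -1.51. Among mast cell genes the IgE receptor chain Fcer1a changed by -0.85, -1.29 and -0.93 with baricitinib and by 0.41, 0.86 and 1.28 with vehicle, a difference of -1.88 and the only one of 9 without overlap. The proteases Mcpt4 and Tpsb2 of the same cells had 1.34 and 0.92. Dendritic and Langerhans cell genes (9 measured, median -0.196) all overlapped, B and plasma cell genes (8 measured, median -0.251) did so except for Jchain (-2.25), and of 8 neutrophil genes S100a8 (-2.77), S100a9 (-1.78) and Cxcr2 (-0.83) were lower without overlap and Camp (0.52) higher. S100a8 and S100a9 are made by keratinocytes as well.

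**Figure D2:**
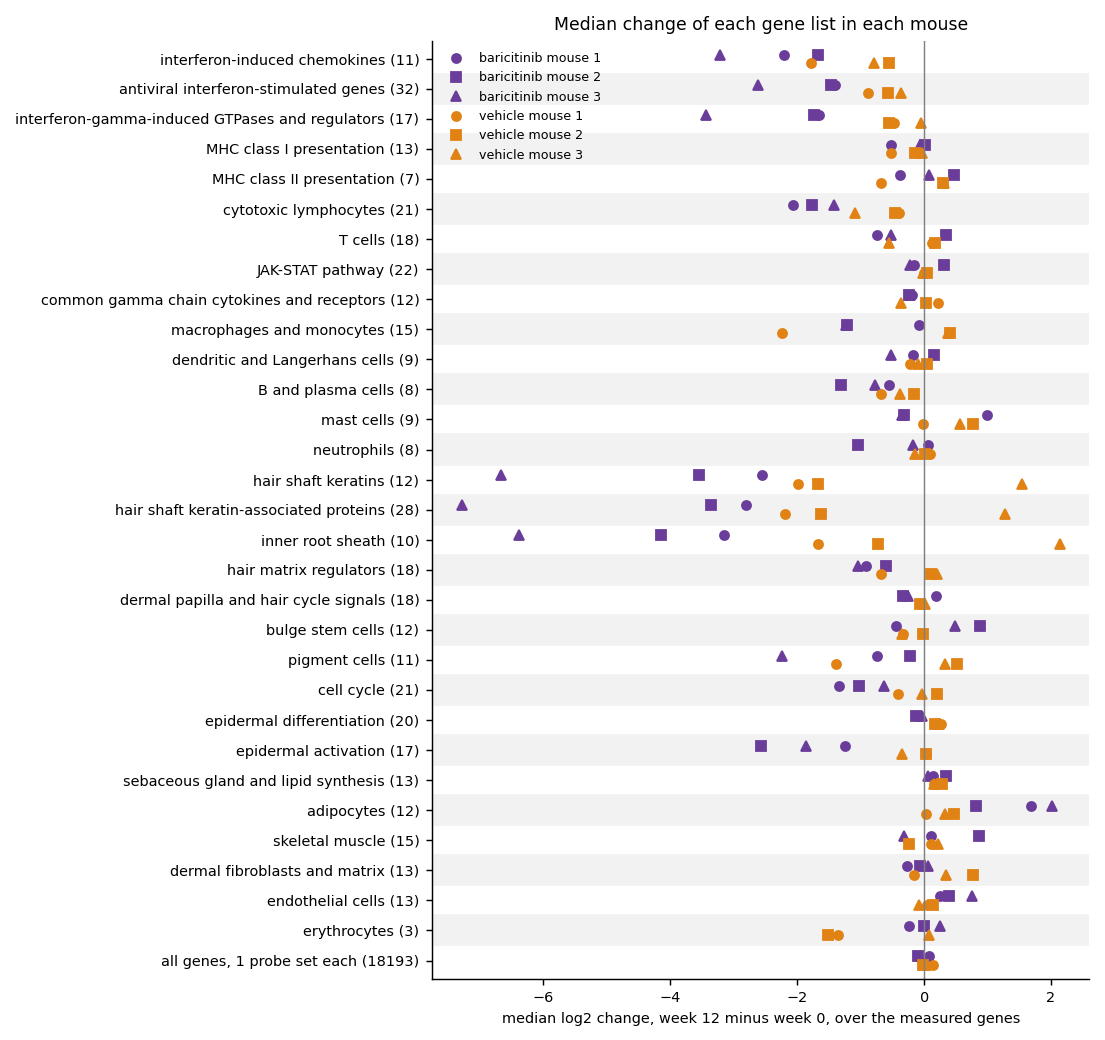
Median log2 change from week 0 to week 12 (x axis) over the measured genes of each list (y axis, number of genes in parentheses) in each of the 6 mice, baricitinib in purple and vehicle in orange. Among other lists, the 3 baricitinib mice lie below the 3 vehicle mice for the GTPases and regulators, cell cycle and epidermal activation and above them for adipocytes, and vehicle mouse 3 stands apart on the positive side for the hair lists.

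Keratins of the growing hair follicle had the most negative list medians once the study's own signature list was set aside. The mice of a group differed widely in them. According to the study, hair grew in mice treated with baricitinib, whereas vehicle mice showed no clinical regrowth. The relation of that outcome to the values below was not tested. Krt35, an early keratin of the hair shaft, had levels of 10.58, 8.83 and 10.74 at week 0 and 3.39, 4.44 and 2.79 at week 12 with baricitinib. With vehicle the levels were 10.26, 8.89 and 7.30 at week 0 and 8.30, 8.21 and 8.51 at week 12. At week 12 the baricitinib mice were all far below the vehicle mice, and the difference of changes was -6.03 (SE 1.06, limma adjusted p = 0.41). Krt82, Krt31, Krt33a, Krt33b and Krt86 followed at -4.85, -4.78, -4.60, -3.98 and -3.54 without overlap, whereas Krt34, Krt81, Krt83, Krt32, Krt84 and Krt36 overlapped at -3.20, -3.67, -2.32, -1.04, -0.52 and -0.35. The keratin-associated proteins, which cross-link shaft keratins, had a median difference of -3.54 over 28 genes, of which 17 did not overlap. Krtap4-16 (-5.57), Krtap5-2 (-5.46) and Krtap13-1 (-5.31) were the most negative, but probes within this family can detect more than 1 member.

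The inner root sheath, the sleeve that guides the growing shaft, had the highest share of genes without overlap among the hair lists. Krt73 changed by -5.50, -4.48 and -7.20 with baricitinib and by -1.25, -0.67 and 0.83 with vehicle, a difference of -5.36 (SE 0.78, limma adjusted p = 0.278). It was called lower in the 10-array fit (-5.99, limma adjusted p = 0.0439). Krt71, Krt27, Krt25, Krt26, Krt72 and Krt28 lay between -5.35 and -4.16, and Tchh, the trichohyalin that fills inner root sheath cells, had -2.99. Of 10 genes 8 did not overlap and the median was -4.24. Gata3, a regulator of this lineage, had a positive difference (0.78).

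Within both groups the hair genes depended on the mouse. The median change of the 12 shaft keratins was -2.56, -3.55 and -6.67 in baricitinib mice 1 to 3 and -1.98, -1.67 and 1.54 in vehicle mice 1 to 3. Vehicle mouse 3 therefore ran against the other 2 vehicle mice, and without it the median difference was -2.50 in place of -3.61. Without baricitinib mouse 3 it was -2.07. For the inner root sheath the per-mouse medians were -3.16, -4.14 and -6.38 against -1.68, -0.726 and 2.13, with a median difference of -2.81 without vehicle mouse 3. The median week 0 difference between the groups was 0.957 for shaft keratins, 0.959 for keratin-associated proteins and 0.870 for inner root sheath genes, and vehicle mouse 3 accounted for its sign. The median level of the shaft keratins at week 0 was 6.33 in that mouse, against 11.07 and 9.29 in the other vehicle mice and 9.37, 9.06 and 10.86 in the baricitinib mice. Without it the 3 week 0 differences were -0.284, -0.362 and -0.089. At week 12 the median difference between the groups was -2.76 for the shaft keratins. In the 10-array fit the 3 medians were -4.50, -4.13 and -4.99.

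**Figure D3:**
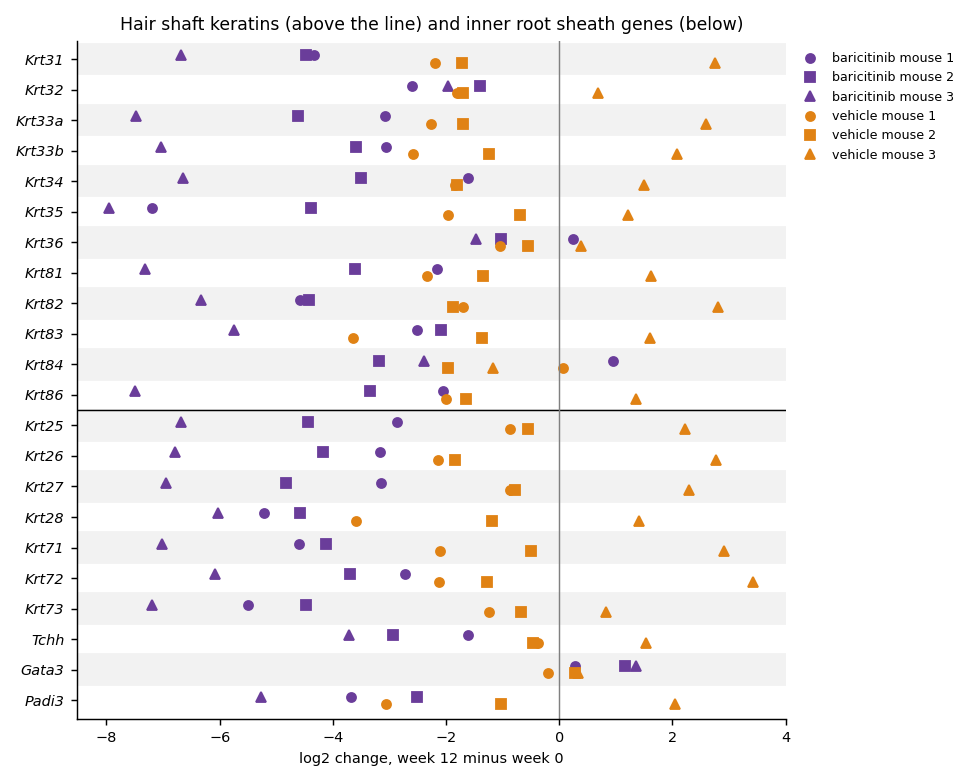
Log2 change from week 0 to week 12 (x axis) of 12 hair shaft keratins and 10 inner root sheath genes (y axis, above and below the line) in each mouse. Baricitinib mouse 3 is the leftmost point for most genes, and vehicle mouse 3 is on the positive side of 0 for most, including Krt31 at 2.76 and Krt71 at 2.91.

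Signals that run the follicle cycle had values in both directions. Shh, which drives the growth phase from the matrix, had a difference of -5.83 (SE 1.35, limma adjusted p = 0.475), with changes of -6.68, -3.23 and -7.52 against -2.50, 1.82 and 0.73. Msx2 and Msx1, homeobox factors of the matrix, had -2.22 and -2.08 with overlap, and among 18 matrix genes Shh, Ovol1 (-1.08), Cux1 (-0.91) and Foxq1 (-0.41) did not overlap. Corin, a protease of the dermal papilla, changed by -2.91, -4.10 and -4.04 with baricitinib and by -1.17, -0.35 and -0.40 with vehicle, a difference of -3.05 (SE 0.46, limma adjusted p = 0.298). Versican (Vcan), also of the papilla, had -1.52 without overlap. Fgf18, a growth factor known for holding follicles in telogen, was on the opposite side. Its level was 4.20, 4.86 and 3.84 at week 0 and 6.34, 8.80 and 9.36 at week 12 with baricitinib, and it was between 3.78 and 4.76 on all 6 vehicle arrays. The difference was 3.84 (SE 0.80, limma adjusted p = 0.443), and Fgf18 was called higher in the 10-array fit (5.04, limma adjusted p = 0.0188). Bmp2, which is also known from the resting phase, had 1.44 without overlap. Over the 18 papilla and cycle genes the median was -0.0098. Among 12 bulge stem cell genes Krt15 alone did not overlap, with changes of 1.13, 2.69 and 3.26 against -0.86, -0.19 and -0.67, a difference of 2.93 (SE 0.57, limma adjusted p = 0.419). Cd34 and Lgr5 had 0.90 and 0.55. Pigment genes, which are used during shaft growth, had a median of -1.17 over 11 genes, led by Mlana (-3.14) and Tyr (-2.63), and all of them overlapped.

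Proliferation genes mostly had negative differences, and the spread between mice varied from gene to gene. Bub1, a kinase of the spindle checkpoint, changed by -2.12, -2.94 and -2.09 with baricitinib and by -0.66, 0.35 and -0.11 with vehicle, a difference of -2.25 (SE 0.42, limma adjusted p = 0.419). Mcm5, a subunit of the replicative helicase, changed by -1.97, -1.93 and -1.81 against -0.24, 0.47 and -0.17, a difference of -1.92 (SE 0.35). For Aurkb, a kinase of chromosome segregation, the changes were -3.50, -1.02 and -0.91 against -0.70, 0.53 and -0.41, and the difference of -1.62 (SE 0.73) was -0.77 without baricitinib mouse 1. Of 21 measured cell cycle genes, 12 did not overlap in the lower direction and none in the higher, and 20 had a difference below 0. The median was -0.976. Mki67, the usual proliferation marker, had -0.69 and overlapped. Mcm10, which helps to start DNA replication, was called lower in the 10-array fit with both of its brighter probe sets (-3.40 and -3.25, limma adjusted p = 0.0153 and 0.0279). E2f7 and Incenp, chosen after their values were seen, were called lower there as well, at -3.12 and -2.05.

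Genes of the activated epidermis were separated, while those of ordinary keratinisation mostly were not. The cross-linked envelope precursors Sprr2h, Sprr1b and Sprr2d had differences of -4.06, -3.91 and -3.87. For Sprr2h the changes were -1.70, -4.57 and -4.62 with baricitinib and 0.55, 0.48 and 0.28 with vehicle (SE 0.76, limma adjusted p = 0.419), and the gene was called lower in the 10-array fit (-5.03, limma adjusted p = 0.0279). Near-identical Sprr2 copies may share its probes. Krt6b, a keratin of wounded epidermis, gave -3.34, with a change of -7.10 in baricitinib mouse 2 against -1.11 and -2.58 in the other baricitinib mice. Il1f6, the cytokine interleukin-36 alpha, changed by -1.24, -2.56 and -1.64 against 1.45, 0.99 and 0.75, a difference of -2.88 (SE 0.45, limma adjusted p = 0.308). Its groups had opposite signs in every mouse. Of 17 activation genes 10 did not overlap in the lower direction and 1 in the higher, Krt17 (0.88), which is also a keratin of the follicle's outer root sheath. The median was -1.78. The basal and suprabasal keratins Krt5, Krt14, Krt10 and Krt1 had -0.06, 0.38, -0.18 and -0.71, and the median of 20 differentiation genes was -0.301. Tgm3 (-2.52), a transglutaminase used in both the epidermis and the hair follicle, Casp14 (-1.64) and Flg (-1.44) were among the 7 that did not overlap. Tgm3 was also called lower in the 10-array fit (-3.56, limma adjusted p = 0.0486), while a dimmer probe set of it overlapped.

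Adipocyte genes had the most positive list median. None of the 12 measured members had a difference below 0, against 56.4% of all genes, and 4 did not overlap in the higher direction. Adipoq, the hormone adiponectin, had levels of 9.29, 10.05 and 7.84 at week 0 and 11.53, 11.29 and 11.68 at week 12 with baricitinib, and of 8.02, 9.16 and 9.43 and then 8.26, 9.92 and 10.02 with vehicle. All 6 mice were thus higher at week 12, and the difference of changes was 1.91 (SE 0.63, limma adjusted p = 0.682). The lipid droplet proteins Cidec and Plin4 had 2.23 and 1.71, and the lipase Pnpla2 had 1.29. The median of the list was 0.911, and it was 0.504 without baricitinib mouse 3 and 1.41 without baricitinib mouse 2. For the 15 skeletal muscle genes the median was 0.207 and all overlapped. Sebaceous and lipid synthesis genes had a median of 0.056 over 13 genes, with Elovl3 (1.38) alone without overlap. Among 13 fibroblast and matrix genes 4 did not overlap in the lower direction, with the collagens Col5a1 (-1.59) and Col6a1 (-1.25) the most negative, 1 in the higher, Dcn (1.11), and the median was -0.246. Among 13 endothelial genes Emcn (1.83) and the leukocyte adhesion molecule Vcam1 (-1.55) did not overlap, and the median was 0.139. That is 1 gene in each direction, close to the shares over all genes. Dimmer probe sets of Vcam1 gave 0.45 and -0.29 with overlap. Of the 3 erythrocyte genes, Alas2 (1.95) and Slc4a1 (-3.05) did not overlap, and the median was 0.26.

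Beyond the lists, the probe sets with the smallest p and no overlap were taken in each direction. In the lower direction Cxcl11 and Cxcl10 were among them. The kallikrein proteases Klk13 and Klk6 had differences of -3.95 and -3.22, the cornified envelope gene Lce3a -3.59, the protease inhibitor Stfa3 -3.16 and the connexin Gjb2 -2.38. For Gjb2 the changes were -2.88, -2.92 and -2.87 with baricitinib and -0.56, -0.59 and -0.37 with vehicle, the narrowest spread among these genes. For Lce3a they were -2.30, -2.30 and -2.43 against 1.41, 1.70 and 0.60, so that each group moved in its own direction. The metalloprotease Adam12 and the stromal membrane protein Lrrc15 had -3.08 and -3.47, although a dimmer probe set of each overlapped. 2610528A11Rik (-4.09) and AU018091 (-3.30) completed the set with Mcm10. Klk13, Lce3a and Lrrc15 were called lower in the 10-array fit (limma adjusted p = 0.0209, 0.0411 and 0.0279).

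In the higher direction Depp1, a gene known as a target of FOXO factors, changed by 2.96, 3.56 and 2.99 with baricitinib and by 0.78, 0.01 and -0.21 with vehicle, a difference of 2.97 (SE 0.40, limma adjusted p = 0.252). Igfbp3, which binds insulin-like growth factors, changed by 1.96, 3.46 and 3.47 against -0.18, 0.17 and -0.14, a difference of 3.02 (SE 0.48, limma adjusted p = 0.322), and its second probe set gave 2.01. Il31ra, a receptor chain for the itch cytokine interleukin-31, had 2.83 without overlap, and its second probe set 2.92 with overlap. The peptide hormone gene Cck (2.62), Pdzrn4 (2.92), Upk3b (2.55), Agr3 (2.44), Thsd1 (2.42), Rab17 (2.18), Efcab1 (2.13), Cmbl (1.95) and Ablim3 (1.83) followed. The probe sets of Efcab1 disagreed, as its brightest gave 2.77 and its dimmest -1.06, each without overlap in its own direction. A dimmer probe set of Rab17 gave 0.05 with overlap. Several of these were dim, with mean log2 values of 2.8 for Agr3 and 3.9 for Pdzrn4 against a median of 5.24 over all probe sets. In the 10-array fit Igfbp3, Agr3, Il31ra, Cck and Pdzrn4 were called higher (limma adjusted p = 0.0153, 0.0188, 0.0188, 0.019 and 0.019), as was the second probe set of Depp1 (3.47, limma adjusted p = 0.0266). All 19 probe sets called lower there also had 6 paired changes without overlap, as had 15 of the 16 called higher. Over all probe sets the shares without overlap in these directions were 6.14% and 5.41%. The 10-array fit draws on the same arrays, so these counts follow largely from the selection and are no separate evidence. The lower calls named after their values were seen included Bcl3 (-2.90) and Slamf1 (-3.06), and the higher ones Zbtb16 (2.82) and Ackr2 (2.48), a scavenger receptor for chemokines.

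**Figure D4:**
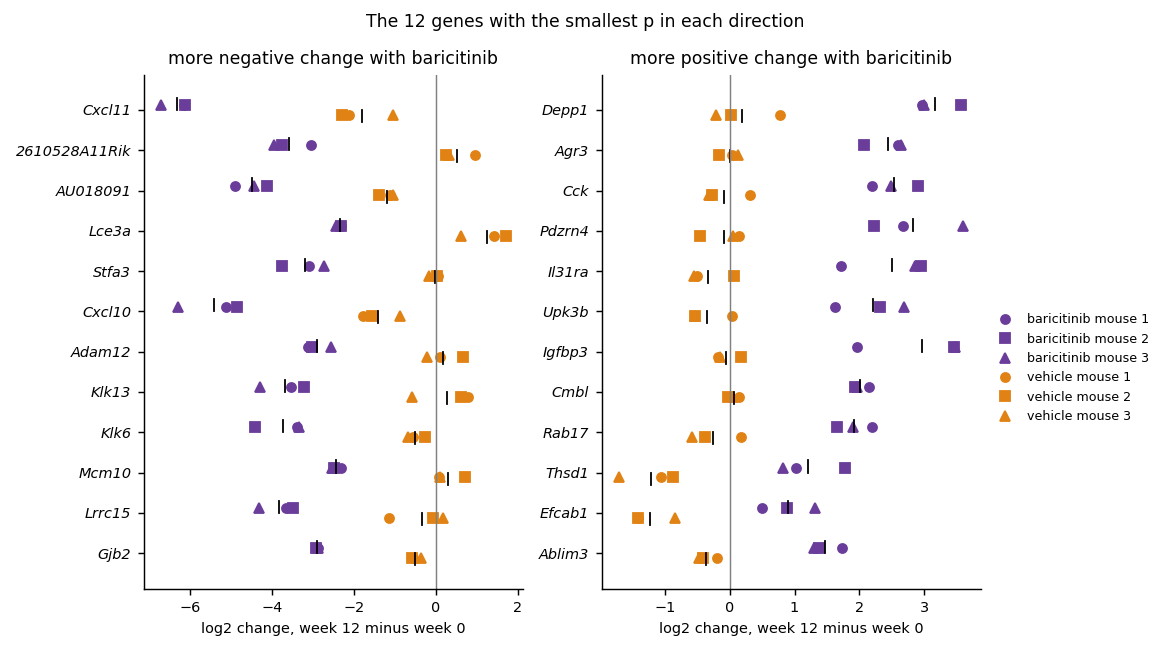
Log2 change from week 0 to week 12 (x axis) in each mouse for the 12 genes with the smallest p in each direction among probe sets without overlap (y axis), with a vertical tick at each group mean. The baricitinib changes of Cxcl11 lie between -6.70 and -6.11, and those of Gjb2 between -2.92 and -2.87, while the vehicle points of most genes lie near 0.

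A difference of changes can arise in either group. Changes were wider with baricitinib across the whole array, with an SD over all probe sets of 0.853, 1.13 and 0.841 in baricitinib mice and 0.649, 0.475 and 0.551 in vehicle mice, and the mean baricitinib change was the larger in 65.5% of all probe sets. The first 2 of these baricitinib mice are those with a narrow array. Among the 1412 probe sets with a negative difference and an unadjusted p under 0.05, the baricitinib change was the larger of both in 84.3%. Their median change was -1.13 with baricitinib and 0.223 with vehicle. Among the 1383 with a positive difference the share was 86.8%, with median changes of 1.03 and -0.319. As the p is computed from the same changes, these shares describe the probe sets and test nothing. The vehicle group contributed most visibly where it moved the other way. For Gsdmc2, a gasdermin of the epidermis whose probes may also detect its near copies, the changes were -3.49, -2.01 and -2.19 with baricitinib and 3.69, 1.27 and 1.54 with vehicle, a difference of -4.73 (SE 0.71, limma adjusted p = 0.298). Celsr3, a cadherin, changed by -1.50, -0.91 and -0.95 against 1.18, 1.13 and 1.69, and was called lower in the 10-array fit (-2.22, limma adjusted p = 0.0299). In all, 731 probe sets (1.62%) went down in 3 baricitinib mice and up in 3 vehicle mice, and 593 (1.32%) did the opposite.

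**Figure D5:**
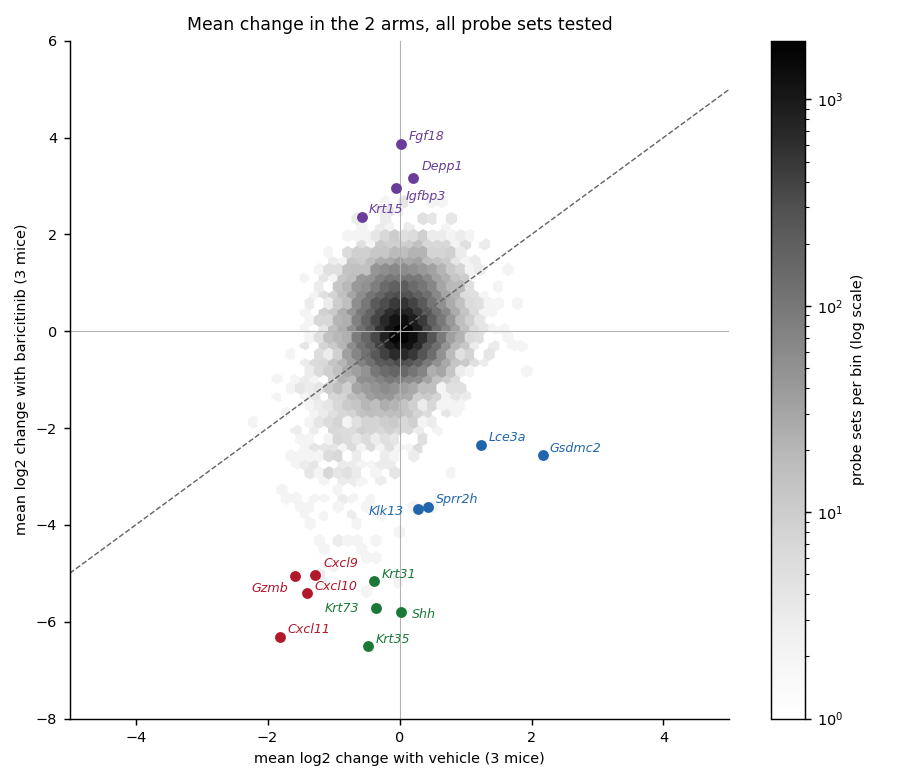
Mean log2 change with baricitinib (y axis, 3 mice) against mean log2 change with vehicle (x axis, 3 mice) for all 45037 probe sets, shaded by number per bin, with a dashed line where both are equal. Chemokines and Gzmb (red) lie to the left of 0 on the x axis, with vehicle changes of -1.28 to -1.81, whereas Krt31, Krt35, Krt73 and Shh (green) and Klk13, Sprr2h, Lce3a and Gsdmc2 (blue) lie nearer to 0 or to its right.

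Starting levels were compared because a difference of changes also contains the difference at week 0. At that time limma called no probe set between the baricitinib and vehicle mice, with 310 lower and 198 higher at an unadjusted p under 0.05. For the probe sets with a negative difference of changes (unadjusted p under 0.05) the median week 0 difference was 0.251 and the median week 12 difference -1.16, and for those with a positive one they were -0.34 and 0.996. The week 0 part was the larger part of the difference in 7.86% and 12.7% of these probe sets. They were selected on the week 12 difference minus the week 0 difference. An opposite sign at week 0 therefore follows in part from the selection, and these values test nothing. For Cxcl9, Cxcl10 and Cxcl11 the week 0 differences were 0.11, 0.31 and 0.14, against -3.63, -3.70 and -4.36 at week 12. The 13 genes of the study's disease activity signatures described here include the chemokines, Cd8a, Gzmb and hair keratins above. Of these 13 genes, 10 did not overlap in the lower direction, and the median difference was -3.74. Hoxc13 (-1.16), Pkp1 (-0.07) and Prf1 (1.09) of this list overlapped. The value of Hoxc13 was -0.35 without baricitinib mouse 1. That list was chosen by the study and is not independent evidence of its direction.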

How the data were processed

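Skin of 3 baricitinib and 3 vehicle mice was measured at week 0 and week 12 on Affymetrix mouse genome expression arrays. The log2 values deposited by the authors were made by RMA, run for each experiment on its own, after NuGen amplification and labelling. The version of RMA is not given in the sources used here. The methods state that arrays failing quality control were removed before further analysis. They do not say which, or whether these took part in the normalization. As RMA equalises the distribution of all arrays, a shift common to most genes cannot be seen. Precision is limited by how few arrays there are.

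Of 45101 probe sets, 64 controls were left out. Of the 45037 tested, 34945 carried 1 symbol in the platform annotation, 932 several and 9160 none. Week 12 minus week 0 was computed per mouse, as the labels give 1 animal number at both weeks. As a check, deviations from the group means were correlated between the weeks, which gave -0.36, -0.51 and 0.47 for baricitinib and 0.44, -0.13 and 0.49 for vehicle mice. The signs were mixed, and the consensus correlation within mice in the fit with a random block was -0.0039. The check thus showed no shared mouse effect, and the pairing rests on the labels. The test of the 6 changes was that of limma 3.58.1, run under R 4.3.3 (two-sided, residual degrees of freedom 4, prior degrees of freedom 3.91), and the Benjamini-Hochberg adjustment covered every probe set tested, with a threshold of 0.05. The fit was tested on simulated data. Standard errors are the moderated ones of limma, and week 0 was compared on all 12 arrays with a mean for each group. A gene's value is that of its brightest probe set, or of the ranked probe set for ranked genes.

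Named were the 12 genes per direction with the smallest p among probe sets without overlap, since none was called, the study's signature genes, up to 3 members of each of 31 lists with the largest difference, and 5 genes per direction whose groups moved oppositely in every mouse. Other genes were named after their values were seen. The members and lists were chosen with earlier results of these data known. Lists are described by counts and medians with no test. 1 gene of the signatures is not reported here. Alternatives were the fit without a replicate block or with a random one, other variance models, array weights, median centring, cyclic loess, a filter on dim probe sets, 1 probe set per gene and leaving out each mouse. A further 3 were chosen after seeing the data, namely leaving out both baricitinib mice with a narrow array, the 3' to 5' change as a covariate, and leaving out the 2 narrow arrays with no replicate block. Promoters were read from RefSeq (GRCm38.p6) with Python 3.11.15, pandas 2.3.3 and numpy 2.4.6, and figures drawn with matplotlib 3.10.9.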

Additional observations from a re-analysis of the deposited data

Results flagged for a closer look

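In 24 of the 125 named probe sets all 3 baricitinib mice changed in one direction and all 3 vehicle mice in the other, 15 with a negative and 9 with a positive difference of changes. Over all probe sets tested the shares were 1.62% with a negative and 1.32% with a positive difference. Many of the 125 were chosen for a small p without overlap or a large difference, which favours this pattern, so the count tests nothing. The difference was tested by the paired limma fit, which called none of the 24 (adjusted p between 0.184 and 0.669). The negative log2 differences were Gsdmc2 -4.73, 2610528A11Rik -4.09, Sprr2h -4.06, Sprr2d -3.87, Lce3a -3.59, Scn2a -3.18, Mcm10 -2.75, Ttc30a2 -2.72, Tgm3 -2.52, Celsr3 -2.45, Fcer1a -1.88, S100a9 -1.78, Casp14 -1.64, Col5a1 -1.59 and Col6a1 -1.25. The positive ones were Krt15 2.93, Gpcpd1 2.86, Taok1 2.61, Lrmda 2.56, Nectin3 2.44, Thsd1 2.42, Efcab1 2.13, Ablim3 1.83 and Elovl3 1.38. Among genes named after their values were seen, Il1f6 (-2.88) showed the same pattern. Sprr2h, Lce3a, Mcm10, Tgm3 and Celsr3 were also called lower once the 2 narrow arrays were left out. The 5 genes named in each direction because their groups moved oppositely were chosen for this pattern. Not every probe set of these genes showed it. For Taok1 the value came from a dim probe set, while its brightest gave 0.13 with overlap and the next -0.58 without overlap, and the brightest probe set of Gpcpd1 gave 0.30 with overlap. The dimmest probe set of Efcab1 gave -1.06 without overlap.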

How the results depend on the processing

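With no replicate block the limma fit also called no probe set, with a smallest adjusted p of 0.0758 and 1466 lower and 1359 higher at an unadjusted p under 0.05. As the numbers pair arrays of the same animal, the block is kept in the paired values. Dropping it changed no call on all 12 arrays, but the calls named gene by gene come from the fit of 10 arrays, which has no block. A random block, the dim filter, robust variances, median centring, cyclic loess, array weights (which did not converge), 1 probe set per gene, the covariate and leaving out both mice with a narrow array also gave 0 calls (smallest adjusted p between 0.0764 and 0.76). The limma trend called 4 lower (Cxcl11, 2610528A11Rik, Stfa3 and Gjb2), and the 10 arrays without the narrow ones gave 19 lower and 16 higher. Without each mouse in turn 0 to 2 were called lower, the 2 being Sprr2h and Spink12 without baricitinib mouse 1.

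Of the list medians and counts, 572 values under an alternative moved by less than the spread between mice and 38 by more. With both mice of a narrow array left out the medians were -2.61 (chemokines), -1.96 (antiviral genes), -6.18 (hair shaft), -6.20 (keratin-associated proteins), -6.24 (inner root sheath), -2.28 (pigment), -0.549 (cell cycle), -0.144 (epidermal differentiation), 1.75 (adipocytes), -0.695 (muscle) and 0.348 (endothelial). The covariate gave -0.331 (MHC class I), -0.674 (MHC class II) and -0.359 (epidermal differentiation), and median centring -0.370 for the last. The dim filter gave -1.25 (cytotoxic), -0.431 (common gamma chain) and 0.420 (endothelial), and the 10 arrays -0.258 (common gamma chain). Array weights gave -0.079 (sebaceous), 0.411 (adipocytes), 0.681 (muscle) and 0.358 (endothelial).

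Without each mouse in turn the medians ran from -2.11 to -0.886 (chemokines), from -0.152 to 0.144 (MHC class I), from -0.304 to 0.308 (MHC class II), from -0.401 to 0.041 (T cells), from -0.210 to -0.084 (JAK-STAT pathway), from -0.192 to 0.076 (common gamma chain), from -1.32 to -0.393 (macrophages), from -0.475 to 0.007 (dendritic cells), from -0.567 to -0.107 (mast cells), from -0.630 to -0.0086 (neutrophils), from -4.70 to -2.07 (hair shaft), from -4.27 to -2.17 (keratin-associated proteins), from -5.32 to -2.81 (inner root sheath), from -1.62 to -0.722 (pigment), from -0.629 to -0.031 (B and plasma cells), from -0.207 to 0.340 (papilla and cycle), from 0.182 to 1.03 (bulge), from -0.322 to -0.195 (epidermal differentiation), from -0.037 to 0.193 (sebaceous), from 0.504 to 1.41 (adipocytes), from -0.237 to 0.714 (muscle), from -0.641 to -0.014 (fibroblasts), from 0.029 to 0.386 (endothelial) and from 0.048 to 0.429 (erythrocytes). In the other lists no mouse left out moved the median by over 1.5 times. Single genes turned in direction for Psme1 (-0.26), H2-Aa (-0.67) and Cd34 (-0.32) with the covariate, Ms4a1 (0.034 without baricitinib mouse 2, and from -1.82 to 0.034 over the mice left out) and Myh4 (-1.41) without both mice of a narrow array. The cause was not tested. With 3 mice a group and RMA values compressed near background, differences of dim probe sets are the least certain.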
